A study of Rattus norvegicus with 10 samples.

Results

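The miRNAs described here come from the miR-17-92 cluster and its paralogs, 10 mature miRNAs of the 765 rat miRNAs listed by mature name. They were chosen by name: miR-17-5p, miR-18a-5p, miR-19a-3p, miR-19b-3p, miR-20a-5p and miR-92a-3p, then miR-106b-5p, miR-93-5p and miR-25-3p, and finally miR-92b-3p. All 10 were found in the table. Small RNA of the hippocampus of Wistar rats aged 10 weeks was sequenced in 5 libraries of a sham-operated group (replicates 1 to 5) and in 5 libraries of a 2-VO group (replicates 3, 5, 6, 7 and 8). In the 2-VO operation both common carotid arteries are occluded, which lowers the blood flow to the forebrain. The labels give no time from operation to sampling and do not say that the libraries come from separate animals, so each error and p-value given here covers only how these libraries spread, and that may be technical.

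A miRNA directs Argonaute proteins to messenger RNAs mainly through its seed, bases 2 to 8, so miRNAs with the same seed share most predicted targets. The miR-17-92 transcript is a known target of MYC and E2F transcription factors, and its miRNAs lower proteins such as BIM and the cell cycle inhibitor p21. In the brain these clusters are best known from proliferating progenitors, including those of the adult dentate gyrus. The miR-106b-25 cluster is processed from an intron of Mcm7, a gene of the replicative helicase.

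The mature sequences are shown because the members fall into 4 seeds, and the levels and fold changes below are ordered by them. They come from RefSeq (build GRCr8), in which all 10 members were matched by name, and capitals mark the seed. The miR-17 seed is carried by 4 members.
miR-17-5p: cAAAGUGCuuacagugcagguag
miR-20a-5p: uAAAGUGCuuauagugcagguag
miR-106b-5p: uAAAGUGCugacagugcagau
miR-93-5p: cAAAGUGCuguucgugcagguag
The miR-18 seed differs from it by 1 substitution, A4G, with positions counted from 1 at the 5′ end and the base of miR-17-5p first.
miR-18a-5p: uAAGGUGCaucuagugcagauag
The miR-19 seed is carried by 2 members.
miR-19a-3p: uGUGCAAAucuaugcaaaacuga
miR-19b-3p: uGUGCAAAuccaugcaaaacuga
The miR-92 seed is carried by 3 members.
miR-92a-3p: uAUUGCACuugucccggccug
miR-92b-3p: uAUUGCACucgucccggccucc
miR-25-3p: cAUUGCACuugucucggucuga

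Within a seed some members are close copies, while others differ more, up to 6 of 22 bases for miR-92b-3p and miR-25-3p. miR-19a-3p and miR-19b-3p differ by U11C alone. miR-17-5p and miR-20a-5p differ at 2 bases (C1U and C12U), as do miR-92a-3p and miR-92b-3p over the 21 bases they share (U10C and G21C). The assignment of reads that match more than 1 of these sequences was not given in the sources used here, so the split between such close copies is uncertain. In RefSeq the miR-17-92 hairpins lie at chr15:98587848-98588632 on the plus strand of GRCr8, with 6 hairpins in 785 bases. The third paralog cluster, with the hairpins Mir106a, Mir20b, Mir19b2, Mir92a2 and Mir363, lies at chrX:137342777-137343647 on the minus strand. Identical mature miR-17-5p, miR-19b-3p and miR-92a-3p are annotated on both chromosomes, so their reads cannot be assigned to either cluster. Mir106b, Mir93 and Mir25 lie inside Mcm7 at chr12:22156641-22157123 on the minus strand. Mir92b stands alone at chr2:176931653-176931735 on the minus strand.

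The levels spanned more than 3 orders of magnitude on the deposited RPM scale, which divides the reads of each miRNA by those of its library. miR-92b-3p was highest with a mean of 1088 RPM over the 10 libraries, and miR-18a-5p was lowest with 0.552 RPM. Between them came miR-25-3p (696 RPM), miR-92a-3p (418 RPM), miR-93-5p (130.1 RPM), miR-20a-5p (104 RPM), miR-17-5p (48.2 RPM), miR-106b-5p (33.1 RPM), miR-19b-3p (17.6 RPM) and miR-19a-3p (3.13 RPM). Each miRNA exceeded the next in this order in 10 of 10 libraries. The ranges over the libraries overlapped for 2 pairs of neighbours, miR-93-5p with miR-20a-5p and miR-17-5p with miR-106b-5p. Adapter ligation favours some sequences over others, so these are levels of reads and were not calibrated to molecules. Together the 10 members made up 0.364% ± 0.0352 of the listed miRNA RPM in the sham group, and 0.356% ± 0.0388 of it in the 2-VO group (SD, n = 5 each). Some listed rows share their values with others, so that total is a sum over rows and may count some reads repeatedly.

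**Figure D1:**
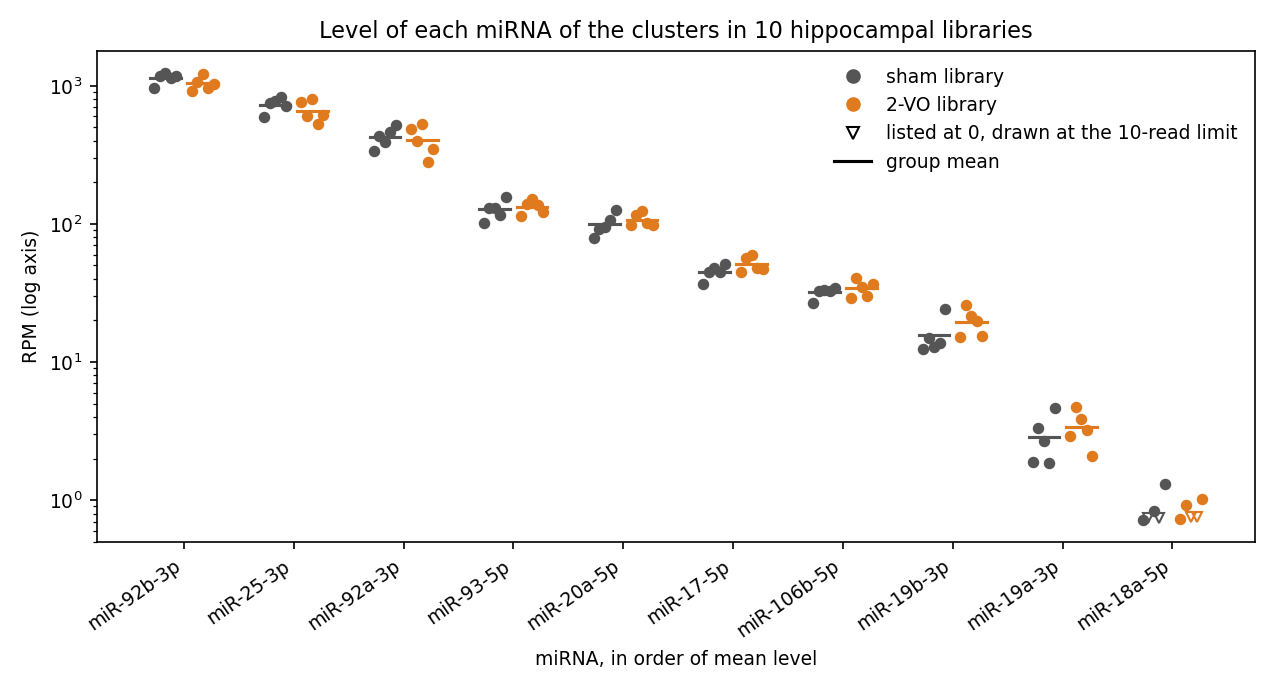
RPM on a log axis for each of the 10 miRNAs, with 1 point per library, a bar at the group mean and open triangles at the 10-read limit where a library is listed at 0. The 3 miR-92 seed members lie above all others, and the sham and 2-VO points overlap for each miRNA.

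Members encoded side by side stood at very different levels. miR-92a-3p was a median of 8.98 times miR-17-5p within a library, and miR-20a-5p was a median of 2.10 times miR-17-5p. The miRNAs made only from the chromosome 15 cluster (miR-18a-5p, miR-19a-3p and miR-20a-5p) ran from 0.552 to 104 RPM in their means. Those made only from the chromosome X cluster were at or near the lowest listed value: miR-20b-5p was above 0 in 3 of 10 libraries with at most 1.07 RPM, and miR-363-3p averaged 1.74 RPM. In the Mcm7 cluster miR-25-3p was a median of 22.5 times miR-106b-5p.

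The comparison of 2-VO with sham asks whether hippocampal miRNAs differ after carotid occlusion. Of the 10 members, 9 had a mean of at least 1 RPM and were tested among 474 miRNAs, and 0 passed limma's test at an adjusted p under 0.05 (Benjamini-Hochberg over the 474, members' adjusted p from 0.77 to 0.96). At that threshold 0% of all 474 passed. At an unadjusted p under 0.05, again 0 of the 9 members were found with limma and 0 with limma's voom on read numbers, beside 5.06% of all 474 with limma (0.844% higher and 4.22% lower in 2-VO). The groups overlapped for each of the 9, while they did not overlap for 0.633% of all miRNAs. Among the 9 members the direction went with the seed. The 6 with a miR-17 or miR-19 seed had positive log2 fold changes and the 3 with a miR-92 seed negative ones. However, miR-92a-3p turned to 0.0099 with quantile normalization and, like miR-93-5p, changed sign without 1 library. The tested relatives with a miR-92 seed, miR-32-5p (0.14) and miR-363-3p (0.10), had positive log2 fold changes, so this held only within the members. In bulk tissue, fewer cells that make a miRNA and less of it per cell cannot be told apart. A higher mean in 2-VO was thus found for 6 of 9 members, beside 37.8% of all 474 miRNAs, a share that was 50.6% when values were scaled to the listed reads and 52.3% with TMM factors. The median log2 fold change was 0.090 over the 9 members and -0.051 over all miRNAs. Scaled to the listed reads these medians were 0.15 and 0.00068, and without sham replicate 1 they were 0.027 and -0.079. For 7 of the 9 the fitted 95% interval stayed inside 1.5-fold up or down, beside 85.7% of all miRNAs, and reached beyond it for miR-19a-3p and miR-19b-3p.

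**Figure D2:**
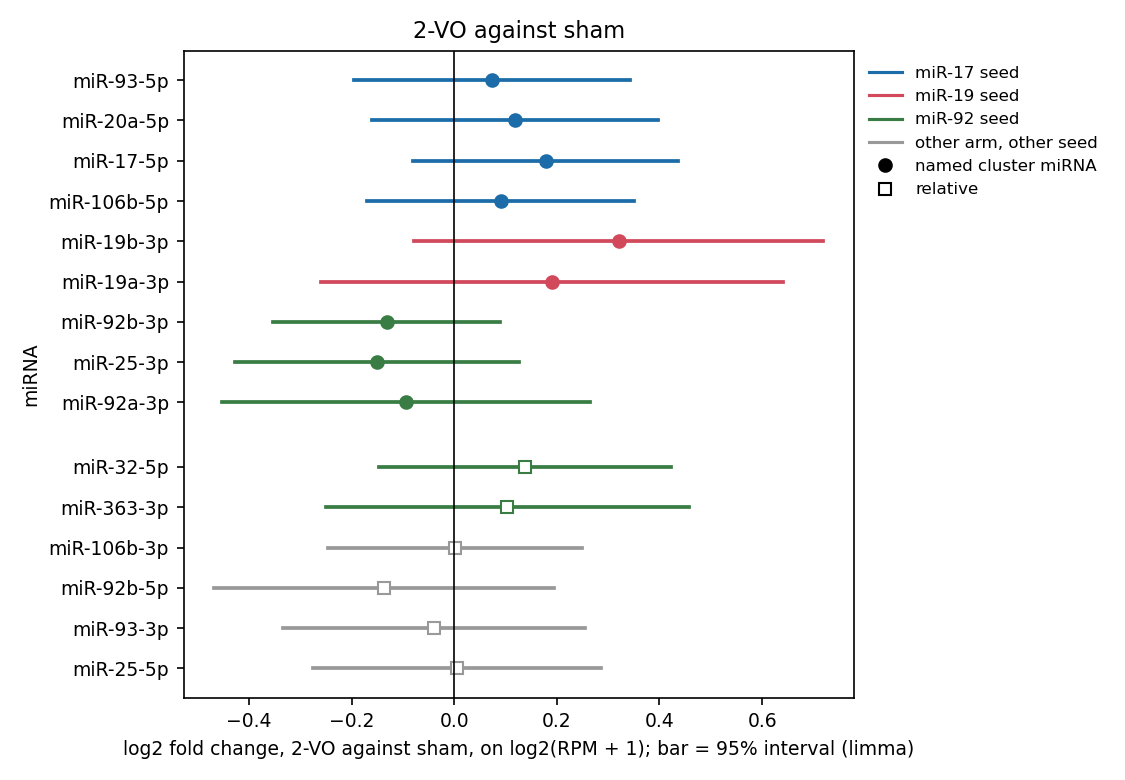
Log2 fold change of 2-VO against sham on log2(RPM + 1) with its 95% interval from limma, for the 9 tested members (filled circles) and 6 tested relatives (open squares), coloured by seed. Each interval includes 0, and the miR-19b-3p point at 0.32 is the farthest from it.

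Among the miR-17 seed members, which repress cell cycle and TGF-beta pathway genes, miR-17-5p stood at 36.9, 44.9, 48.0, 44.8 and 50.9 RPM in sham replicates 1 to 5. In 2-VO replicates 3, 5, 6, 7 and 8 it stood at 44.9, 56.7, 59.7, 47.6 and 47.3 RPM. Only 2-VO replicates 5 and 6 lay above the highest sham library. Its log2 fold change was 0.18 ± 0.12 (SE; 95% interval -0.080 to 0.44; limma adjusted p = 0.82). With the other scalings it was 0.23 to 0.24, and the unadjusted limma p fell from 0.16 to between 0.014 and 0.024, while the adjusted p stayed at 0.48 to 0.62.

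miR-20a-5p, the close copy of miR-17-5p in the same cluster, stood at 78.4, 92.3, 94.4, 107 and 126 RPM in sham and at 98.3, 117, 123, 102 and 97.6 RPM in 2-VO libraries, in the same order of replicates. Its highest value was in sham replicate 5, and the 2-VO values lay inside the sham range. The log2 fold change was 0.12 ± 0.13 (SE; limma adjusted p = 0.92), from 0.038 when sham replicate 1 was omitted to 0.21 when sham replicate 5 was.

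From the Mcm7 cluster, miR-106b-5p stood at 26.6, 32.8, 33.0, 32.7 and 34.6 RPM in sham and at 28.9, 40.5, 35, 29.8 and 36.6 RPM in 2-VO libraries. The sham values lay close together apart from the low replicate 1, and 3 of the 5 2-VO values exceeded the highest sham value. The log2 fold change was 0.090 ± 0.12 (SE; limma adjusted p = 0.95), or 0.027 when sham replicate 1 was omitted. Its cluster mate miR-93-5p stood at 101, 130.2, 131, 117 and 156 RPM in sham and at 115, 140.0, 152, 136 and 122 RPM in 2-VO libraries. All 2-VO values lay inside the sham range. Its log2 fold change was 0.073 ± 0.13 (SE; limma adjusted p = 0.96). It became -0.0048 once sham replicate 1 was left out.

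The miR-19 seed members, known as the main oncogenic part of the cluster in lymphoma models, had the widest spread within groups, and miR-19b-3p had the largest log2 fold change of the 9 in each scaling, filter and weighting tried. miR-19a-3p was next on the deposited scale, but lay below miR-17-5p with quantile normalization, array weights, a pseudocount of 5 or the GC trend removed. miR-19b-3p stood at 12.4, 14.9, 12.9, 13.8 and 24.2 RPM in sham and at 15.2, 25.8, 21.4, 19.8 and 15.5 RPM in 2-VO libraries, from 169 to 338 reads. Each 2-VO library exceeded 4 of the 5 sham libraries, while sham replicate 5 lay within the upper 2-VO values. Its log2 fold change was 0.32 ± 0.19 (SE; 95% interval -0.078 to 0.72; limma adjusted p = 0.77, unadjusted p = 0.11, place 62 of 474 by p). Without sham replicate 5 it was 0.48, with an unadjusted p of 0.0086 and an adjusted p of 0.46 (limma). With array weights, which count libraries far from their group less, the log2 fold change was 0.42 (limma unadjusted p = 0.025, adjusted p = 0.48).

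miR-19a-3p, from the miR-17-92 cluster alone, had 25 to 62 reads per library. It stood at 1.88, 3.34, 2.67, 1.85 and 4.68 RPM in sham and at 2.92, 4.73, 3.88, 3.23 and 2.10 RPM in 2-VO libraries. As with miR-19b-3p, sham replicate 5 and 2-VO replicate 5 were the highest of their groups. The log2 fold change was 0.19 ± 0.21 (SE; limma adjusted p = 0.92), from 0.085 when 2-VO replicate 5 was omitted to 0.34 when sham replicate 5 was. miR-18a-5p, the member with the altered seed, was above 0 in 3 sham libraries (0.722, 0.838 and 1.30 RPM) and 3 2-VO libraries (0.729, 0.916 and 1.01 RPM). Those values are 10 to 17 reads, a level listed at 0 stands for fewer than 10 reads, and no test was made.

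The miR-92 seed members hold most of the reads of the family, and their known targets include the integrin ITGA5 for miR-92a and BIM for the whole group. miR-92b-3p, known from neural progenitors, stood at 970.1, 1173, 1235, 1133 and 1173.5 RPM in sham and at 918, 1058, 1221, 961 and 1038 RPM in 2-VO libraries. The sham libraries other than replicate 1 exceeded 4 of the 5 2-VO libraries, and 2-VO replicate 6 lay among them. The log2 fold change was -0.13 ± 0.10 (SE; limma adjusted p = 0.84), and its interval of -0.35 to 0.089 was the narrowest of the 9. Its within-group variation was also the lowest, with a coefficient of variation of 10.1% beside a median of 14.9% over the 9 members and 15.3% over all 474 miRNAs.

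miR-25-3p stood at 591, 746, 773, 825 and 716 RPM in sham and at 759, 602, 803, 528 and 617 RPM in 2-VO libraries. Among the 2-VO libraries, replicates 3 and 6 were high, and the other 3 lay below 4 of the 5 sham values. Its log2 fold change was -0.15 ± 0.13 (SE; limma adjusted p = 0.87), or -0.074 when 2-VO replicate 7 was omitted. miR-92a-3p, which is also made by endothelial and blood cells, stood at 337, 432, 389, 462 and 524 RPM in sham and at 487, 396, 526, 279 and 349.7 RPM in 2-VO libraries. It had both its highest and its lowest value in the 2-VO group. Its log2 fold change was -0.094 ± 0.17 (SE; limma adjusted p = 0.96), and 0.033 without 2-VO replicate 7, the lowest library.

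The shares of the 4 seeds among the reads of the members do not depend on the scaling of a library. The miR-92 seed held 87.7% ± 1.06 of the members' RPM in sham libraries, against 85.7% ± 1.57 after 2-VO (SD, n = 5 each). The miR-17 seed held 11.6% ± 0.856 and 13.3% ± 1.38, and the miR-19 seed 0.703% ± 0.189 and 0.939% ± 0.224. For the miR-17 seed, 4 sham libraries lay between 11.0% and 11.3%, and sham replicate 5 at 13.1%, among the 2-VO libraries, which ran from 11.6% to 15%. The lowest 2-VO share was that of replicate 3, and no test was made on these sums.

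Other arms and relatives were looked up by name and seed, 18 rows in all. Of these 10 were listed at 0 throughout, among them miR-18a-3p, miR-19a-5p, miR-20a-3p and both 5p arms of miR-92a, and 6 reached a mean of 1 RPM. With limma 0 of the 6 passed, and 0 had an unadjusted p under 0.05. Of them, 2 carry the miR-92 seed, and both had positive log2 fold changes, unlike the 3 members with that seed.
miR-32-5p: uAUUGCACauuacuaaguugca
miR-363-3p: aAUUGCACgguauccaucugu
They are shown because outside the seed they differ from miR-92a-3p. miR-32-5p, made from a hairpin inside Tmem245, averaged 23.2 ± 3.19 RPM (SD) over the 5 sham and 25.6 ± 3.98 RPM over the 5 2-VO libraries, and its log2 fold change was 0.14 ± 0.13 (SE; limma adjusted p = 0.90). For miR-363-3p of the chromosome X cluster the log2 fold change was 0.10 ± 0.17 (SE; limma adjusted p = 0.96), at 15 to 33 reads per library.

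For 4 of the hairpins both arms reached the tested levels, so their balance could be compared between sham and 2-VO. The arm that is a member was the more abundant one for miR-25, miR-92b and miR-93, but not for miR-106b. There miR-106b-3p averaged 80.1 RPM and was 1.89 to 2.82 times miR-106b-5p in each library. The 5p to 3p ratio passed for 0 of the 4 hairpins (limma adjusted p from 0.62 to 0.99), and 0 of 4 had an unadjusted p under 0.05. Among all 132 hairpins the shares were 0% and 11.4%. On the log2 scale miR-106b had a 5p to 3p ratio of -1.30 ± 0.121 under sham and -1.21 ± 0.223 after 2-VO (SD, 5 libraries each), and miR-25 had -8.14 ± 0.155 and -7.98 ± 0.205. The log2 fold change of miR-106b-3p itself was 0.0015 ± 0.12 (SE; limma adjusted p = 0.996), of either sign when single libraries were left out and -0.011 with array weights.

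Single libraries moved most members together. Sham replicate 1 was the lowest sham library for 8 of the 9 tested members, where it was the lowest for 42.0% of all 474 miRNAs. Sham replicate 5 was the highest for 7 of the 9, beside 29.7% of all miRNAs. In the 2-VO group replicate 6 was above the group mean for 9 of 9 and the highest for 6, beside 32.9% of all miRNAs. 2-VO replicate 3 was the lowest for 5 of 9, beside 50.8% of all. In 2-VO replicate 7 the deviations from the mean over the 10 libraries, on the log2 scale, were -0.56 for miR-92a-3p, -0.38 for miR-25-3p and -0.17 for miR-92b-3p. There they were -0.13 for miR-106b-5p, between -0.014 and 0.075 for the other miR-17 seed members, 0.079 for miR-19a-3p and 0.20 for miR-19b-3p.

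**Figure D3:**
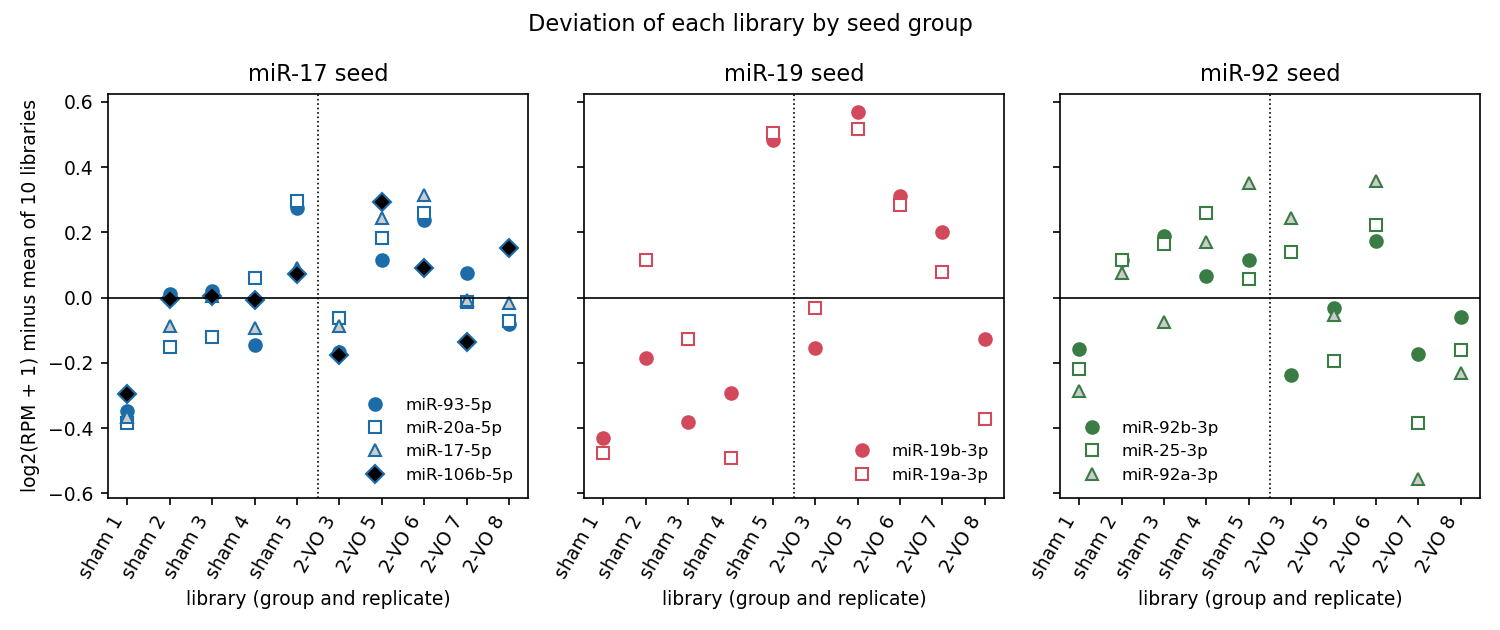
Difference of log2(RPM + 1) in each library from the mean of the 10 libraries, in 3 panels by seed, with sham libraries left of the dotted line and 2-VO libraries right of it. Sham replicate 1 is low in all 3 panels, and 2-VO replicate 7 is low in the miR-92 panel but near or above 0 for 5 of the 6 miRNAs of the other 2 panels.

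Ratios between members within a library do not depend on its scaling. Their spread within groups shows which members kept step among the libraries of a group. Group means were removed first, so a shift of a ratio between sham and 2-VO is not part of that spread. Over the 36 pairs of tested members, the spread of the log2 ratio within groups had a median SD of 0.167 for the 7 pairs that share a seed but not a chromosome. It was 0.261 for the 10 pairs encoded on the same chromosome with different seeds. For the 3 pairs sharing both it was 0.166, and for the 16 sharing neither 0.296. Pairs with the low miR-19a-3p or miR-19b-3p occur among those 10 but not among the 7, so seed and level cannot be told apart. Within the miR-19 seed, miR-19b-3p to miR-19a-3p had an SD of 0.263. In these classes miR-17-5p, miR-19b-3p and miR-92a-3p were counted to chromosome 15, though they are annotated on chromosome X as well. miR-93-5p (chromosome 12) to miR-17-5p (chromosomes 15 and X) had an SD of 0.0861 with ratios of 2.47 to 3.07. The ratio of miR-25-3p to its cluster mate miR-93-5p ran from 3.88 in 2-VO replicate 7 to 7.07 in sham replicate 4 (SD 0.261). Sharing a seed was not required for a steady ratio within groups, since miR-92b-3p with miR-17-5p had the smallest SD (0.0808). Over all 10 libraries that pair was not the steadiest. Its ratio ran from 18.7 in 2-VO replicate 5 to 26.3 in sham replicate 1, a 1.41-fold range. For miR-93-5p with miR-17-5p the range was 1.24-fold. These pairs share members, libraries and, within a seed, sequence, so the values are a description.

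The mature sequences also differ in base composition, and the signs of the fold changes went largely with it. The members with positive fold changes had a GC content of 34.8% (miR-19a-3p), 39.1% (miR-19b-3p and miR-20a-5p), 42.9% (miR-106b-5p), 47.8% (miR-17-5p) and 52.2% (miR-93-5p). Those with negative ones had 50% (miR-25-3p), 57.1% (miR-92a-3p) and 63.6% (miR-92b-3p). Among the relatives, miR-32-5p and miR-363-3p had 31.8% and 42.9% with positive fold changes, and miR-92b-5p and miR-93-3p 66.7% and 56.5% with negative ones. The fold changes of miR-25-5p (0.0056) and miR-106b-3p (0.0015), both at 63.6% GC, were near 0. The table as a whole showed a like order. Of the 90 tested miRNAs under 40% GC, 58.9% had a higher mean in 2-VO. The share was 41.9% of 148 miRNAs from 40% to below 50%, 27.5% of 138 from 50% to below 60%, and 22.4% of 58 from 60% up. Across the 434 tested miRNAs with a sequence, Pearson's r of GC content with the log2 fold change was -0.23 (Spearman's rho -0.28), a description over miRNAs that are measured in the same libraries.

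**Figure D4:**
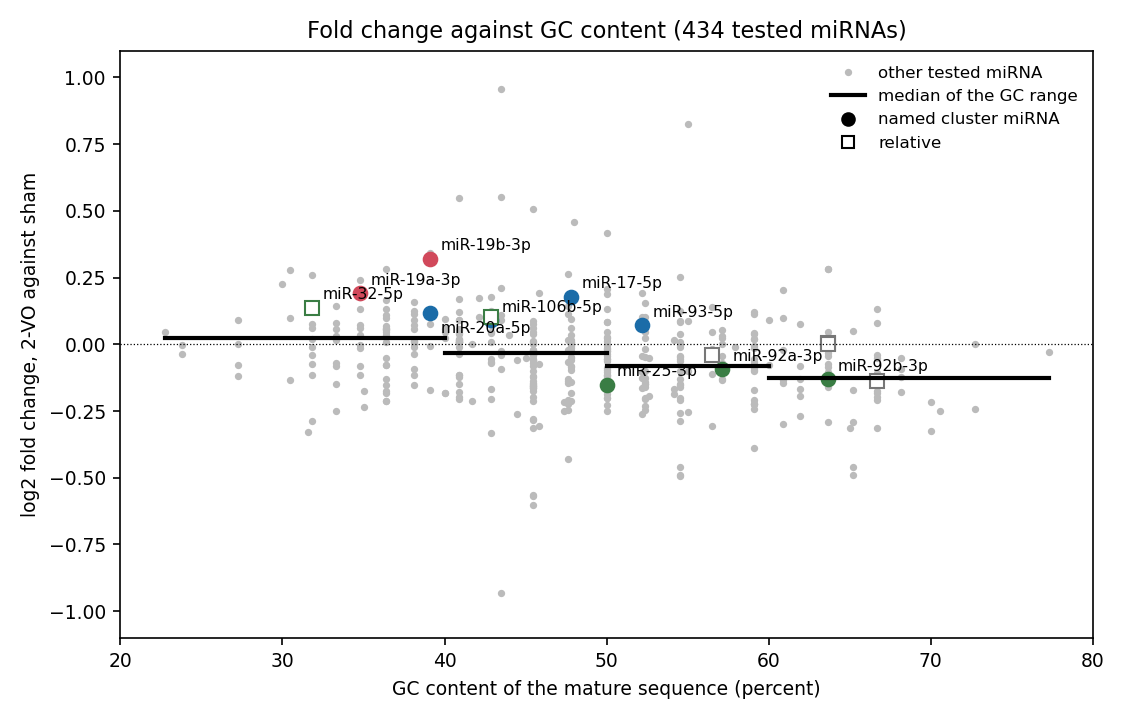
Log2 fold change of 2-VO against sham against the GC content of the mature sequence in percent, for 434 tested miRNAs, with the members and relatives in colour and a bar at the median of each GC range. The medians go from 0.025 below 40% GC to -0.13 from 60% up.

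Composition also varied between libraries of a group. Over the 312 of these miRNAs with at least 10 RPM, the correlation of GC content with a library's deviation was 0.069 to 0.18 in sham replicates 1 to 4 but -0.20 in sham replicate 5, the sham library with the most miR-19b-3p. In the 2-VO group it was -0.19 to -0.062 in replicates 5 to 8 and 0.054 in replicate 3. With the linear GC trend of each library removed, a setting chosen after the data were seen, miR-92b-3p had a log2 fold change of -0.024, miR-92a-3p -0.012 and miR-25-3p -0.097, against -0.13, -0.094 and -0.15 before. TMM factors, which use no base composition, gave -0.066, -0.028 and -0.085 for the same miRNAs in that order, so for miR-25-3p the trend removal and the scaling differed little. miR-19b-3p stayed at 0.33, and miR-17-5p was 0.22 (limma adjusted p = 0.61 and 0.59). Removing the trend also centres each library, and what gives rise to the trend was not tested.

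The miRNAs with the most similar pattern over the 10 libraries, after removal of group means, were found for 3 members by Pearson's r among 473 candidates. For miR-17-5p they were miR-93-5p (0.90), miR-92b-3p (0.89) and miR-190b-5p (0.89). For miR-19b-3p they were miR-135a-5p (0.92), miR-539-3p (0.91) and miR-19a-3p (0.89). For miR-92a-3p they were let-7b-3p (0.92), miR-542-3p (0.89) and miR-21-5p (0.89). These values share the divisor of each library and are highest of many, so they are given as a description.

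The tissue label was checked with marker miRNAs. All 4 miRNAs of the neuronal list were present in each library, with a summed level of 159004 to 205420 RPM. Most of that sum was miR-9a-5p (mean of 132414 RPM over the 10 libraries), followed by miR-128-3p (52524 RPM). The other markers of the list were lower, miR-124-3p with a mean of 2255 RPM and miR-129-1-3p with 146 RPM. Blood cells hold miR-92a, miR-25 and miR-93 too, so red cell and leukocyte markers were set beside them. All 4 red cell markers were above 0 in each library, summing to 131 to 157 RPM in sham and 84.9 to 220 RPM in 2-VO libraries. Most of this sum was miR-486, since miR-451-5p averaged 19.8 RPM, miR-144-3p 4.07 RPM and miR-144-5p 1.90 RPM. The sum was highest in 2-VO replicate 8, where miR-92a-3p (349.7 RPM), miR-25-3p (617 RPM) and miR-93-5p (122 RPM) lay below their 2-VO means. It was lowest in 2-VO replicate 3, where miR-92a-3p and miR-25-3p lay above their 2-VO means and miR-93-5p (115 RPM) below its own. The leukocyte and microglia markers, 3 of 4 present in each library, summed to 241 to 284 RPM in sham and 231 to 295 RPM in 2-VO libraries. The markers of endothelium and vessel wall, all 4 present, summed to 18699 to 21179 RPM in sham and 15973 to 22630 RPM in 2-VO libraries. The sums were 15973 RPM in 2-VO replicate 7 and 16301 RPM in 2-VO replicate 3, which had the lowest (279 RPM) and a high (487 RPM) value of miR-92a-3p, and the highest sum was in 2-VO replicate 8 (miR-92a-3p 349.7 RPM). The choroid plexus markers (3 of 3) summed to 548 to 949 RPM in sham, highest in sham replicate 5, and to 387 to 562 RPM in 2-VO libraries. The epithelial markers, with miR-141-3p at 0 throughout, summed to 10.3 to 23.8 RPM in sham and 12 to 79.6 RPM in 2-VO libraries, highest in replicate 3. The part of these cells in the members' values was not tested, in sham replicate 5 and 2-VO replicates 3, 7 and 8 or elsewhere.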

How the data were processed

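The authors deposited a single table of RPM, with a column per library, as the file headers show. Per the submitters' processing notes, bcl2fastq, BWA and the build rn6 were used. Not given in the sources used here are the annotation, how reads with several matches were assigned, and what was summed for the divisor. With a divisor of 13032805 to 13850400 reads per library, each of the 4962 values above 0 came out whole to within 0.01 reads. The smallest stood for 10 reads, so counts below 10 are taken to be listed as 0 (a limit of 0.722 to 0.767 RPM). Between 60.3% and 78.0% of the divisor fell on listed miRNAs. No molecular identifiers are named, so reads need not be independent molecules.

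From the deposited RPM, log2(RPM + 1) was taken, 474 miRNAs averaging 1 RPM or more were kept, and 5 sham libraries were compared with 5 2-VO libraries using limma 3.58.1 in R 4.3.3 (mean-variance trend, two-sided, no covariate, Benjamini-Hochberg adjustment, threshold 0.05). Fold changes on this scale understate those of low miRNAs. The 5p to 3p ratio was fitted likewise over 132 hairpins. The fits were tested on simulated data, where 97.0% of 66 miRNAs set to a 1.5-fold change were called. Of the 468 simulated miRNAs tested, only 271 had no change set. With so many changed, the Benjamini-Hochberg cutoff is more lenient than where few change. Each simulated miRNA was drawn independently with 1 common dispersion and no shift of whole libraries. Detection in the real libraries, where many miRNAs move together, can therefore be lower. No replicates were merged, since each pair within a group had a chi-square per degree of freedom of 90.3 or more, above counting error. None of the 15 tested members and relatives shared its values with another row within 0.05 on the log2 scale. Other rows with matching means were kept among the 474, so percentages of all 474 miRNAs are percentages of rows.

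The members, the lists and the tests were chosen with earlier results of these data known. All members were named, with relatives chosen by stem or seed and given values at a mean of at least 1 RPM, and the 3 most similar miRNAs of miR-17-5p, miR-19b-3p and miR-92a-3p. Sequences and coordinates are from RefSeq, GRCr8, which is not the build of the reads. Other settings changed the pseudocount, filter, scaling, test, weights and block, or left out each library. A planned count model was not run, since counts below 10 are not listed. Voom on whole reads was run.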

Additional observations from a re-analysis of the deposited data

Results flagged for a closer look

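For 3 groups of 5 values, 1 library lay so far from the others that its gap to the nearest exceeded 0.71 of the range. Over the 38 groups examined, chance gives about 1.9. miR-106b-5p was low in sham replicate 1 (26.6 RPM, others 32.7 to 34.6 RPM), the library that was lowest for 8 of 9 members. miR-19b-3p was high in sham replicate 5 (24.2 RPM, others 12.4 to 14.9 RPM). miR-363-3p was high in 2-VO replicate 5 (2.52 RPM, others 1.52 to 1.80 RPM), at 33 reads. No cause was tested for these.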

How the results depend on the processing

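Over all 12 other settings and the 10 fits that leave out 1 library, 0 of the 15 tested members and relatives passed (limma and voom, smallest adjusted p 0.46), and 308 of 325 log2 fold changes kept their sign. The signs that turned were those of miR-92a-3p with quantile normalization (0.0099), miR-93-3p with TMM factors (0.0040) and with the GC trend removed (0.040), miR-106b-3p with array weights (-0.011), and the 5p to 3p ratio of miR-92b with a pseudocount of 5 (0.036). Leaving out single libraries gave -0.0048 to 0.15 for miR-93-5p, -0.20 to 0.033 for miR-92a-3p, -0.036 to 0.050 for miR-25-5p, -0.054 to 0.065 for miR-106b-3p, -0.098 to 0.020 for miR-93-3p and -0.067 to 0.051 for the ratio of miR-92b. Without turning sign, miR-20a-5p ranged from 0.038 to 0.21, miR-106b-5p from 0.027 to 0.15 and miR-25-3p from -0.22 to -0.074. The causes were not tested. Of all 474 miRNAs 0 passed in each fit, while the number at an unadjusted p under 0.05 was 24, or 37 with median-of-ratios factors, 39 with quantile normalization, 43 with array weights, and 12 to 42 without 1 library. Of the 132 hairpins 0 to 3 passed without 1 library (3 without sham replicate 5, 1 without 2-VO replicate 3), none of them a hairpin of the members. The order of levels had 2 overlapping neighbours both as deposited and scaled to listed reads.

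The groups share the replicate numbers 3 and 5, and the deviations of these pairs correlated at -0.058 and -0.18, so the numbers were not taken to pair the libraries. With the number as a random block 0 miRNAs passed (limma), 17 had an unadjusted p under 0.05, and miR-17-5p and miR-19b-3p had log2 fold changes of 0.19 and 0.33. Among the members depth limits miR-18a-5p (at most 17 reads in a library) and miR-19a-3p (25 to 62) most, and among the tested relatives miR-25-5p (18 to 25), miR-93-3p (24 to 36) and miR-363-3p (15 to 33).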
